A study of Mus musculus with 12 samples.

Results

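Interferon-stimulated genes are the genes that cells switch on through interferon receptors, and 43 of them were followed here across 4 sorted subsets of mouse CD4 T cells. They were chosen by name from a list that covers the transcription factors of the response, nucleic acid sensors, the IFIT and OAS families, other antiviral effectors, the ISG15 system, PARP9 and its partners, interferon-inducible GTPases, antigen processing and 5 further genes. Each of the 43 names matched 1 entry among the 54532 entries of the deposited count table. All 43 passed the filter on low counts, which left 13393 genes for testing.

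The cells came from mixed spleen and lymph node tissue of wildtype C57BL/6 mice that carry a Foxp3-GFP reporter and a polyclonal T cell repertoire, were not treated, and were sorted fresh. Naive cells were CD44low, effector cells (Teff) CD44high FOXP3– CD73low FR4low, anergic cells (Anergic) CD44high FOXP3– CD73high FR4high NRP1+, and regulatory cells (Treg) FOXP3+ CD25+, with 3 libraries of total RNA for each subset. The comparison asks how the tolerant subsets, Anergic and Treg, differ from Teff and Naive cells at rest, since no interferon was given. The labels do not say whether the 3 libraries of a subset came from separate mice, so the p-values reflect the spread of these libraries alone, which may be technical. A lower value in these bulk samples can mean fewer expressing cells or less RNA in each cell, and these cannot be told apart.

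Type I interferons bind the receptor chains IFNAR1 and IFNAR2, whose kinases JAK1 and TYK2 phosphorylate STAT proteins such as STAT2. With IRF9 these form the complex ISGF3, which binds the interferon-stimulated response element (ISRE) in target promoters. Interferon gamma, made by activated T cells themselves, binds IFNGR1 and IFNGR2 and works through JAK1 and JAK2 on promoters with the gamma-activated sequence (GAS). Many targets respond to both, and T cells hold a basal level of most of them without infection.

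The promoters were searched for the 2 elements, and a few are printed as examples. Their windows hold matches to the ISRE alone, to both elements or to the GAS alone. An element of another form, or outside the window searched, would not be found. RefSeq promoter windows of build GRCm38.p6, from 250 bases before to 50 after the start, were at hand for 33 of the 43 genes. The ISRE core GAAANNGAAA, searched on both strands, was present in a window of 18 of the 33 genes (54.5%) and of 1079 of 27025 genes (3.99%) with a window in the same table. For the GAS motif TTCNNNGAA, which reads the same on both strands and was counted separately from the ISRE core, these were 11 of 33 (33.3%) and 2582 of 27025 genes (9.55%). Each line below gives 100 bases that end 21 bases before the start, 5′ to 3′ on the strand of the gene, with every ISRE core or GAS match in capitals.

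Isg15 (chr4:156200839-156200938, - strand): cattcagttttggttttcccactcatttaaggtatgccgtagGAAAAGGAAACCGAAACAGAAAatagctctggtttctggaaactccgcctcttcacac

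Ifit1 (chr19:34640769-34640868, + strand): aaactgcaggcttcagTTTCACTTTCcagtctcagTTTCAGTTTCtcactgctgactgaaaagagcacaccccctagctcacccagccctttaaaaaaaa

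Oas3 (chr5:120777680-120777779, - strand): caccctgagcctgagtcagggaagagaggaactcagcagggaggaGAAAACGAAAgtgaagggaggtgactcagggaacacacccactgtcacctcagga

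Gbp3 (chr3:142559924-142560023, + strand): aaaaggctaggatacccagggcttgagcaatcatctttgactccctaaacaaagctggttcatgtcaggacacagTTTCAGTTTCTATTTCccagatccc

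Gbp7 (chr3:142530216-142530315, + strand): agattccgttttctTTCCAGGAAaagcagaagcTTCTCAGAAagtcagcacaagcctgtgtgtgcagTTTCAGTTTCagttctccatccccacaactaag

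Igtp (chr11:58199436-58199535, + strand): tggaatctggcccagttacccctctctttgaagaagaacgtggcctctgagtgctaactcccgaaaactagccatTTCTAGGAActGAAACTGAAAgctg

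Irf1 (chr11:53769894-53769993, + strand): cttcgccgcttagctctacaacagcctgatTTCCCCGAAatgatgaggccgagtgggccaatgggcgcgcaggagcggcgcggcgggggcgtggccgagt

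In these stretches Isg15 holds 3 overlapping ISRE cores, Ifit1 2 separate ones and Oas3 1, and none of the 3 holds a GAS match. The guanylate-binding protein gene Gbp7 holds 2 GAS matches upstream of 1 ISRE core, Gbp3 2 overlapping ISRE cores, Igtp 1 of each 2 bases apart and Irf1 1 GAS match alone. A match is a description of the letters and not a measured binding site.

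Library totals ran from 6909035 to 9527897 counts, and the 43 genes together held 0.277 to 0.436% of them. The T cell genes Cd3e and Cd4 were high in every subset (means of 434 to 603 and 467 to 1222 CPM), and Foxp3 stood at 543 CPM in Treg, 18.2 in Anergic, 1.36 in Naive and 0.734 in Teff cells. Plasmacytoid dendritic cells are a strong source of interferon and its targets, and 8 of their markers were listed. Of these Klk1 was at 0 in all libraries. As subset means, Cd300c was at most 0.0444 CPM, Ly6d at most 0.354 and Siglech at most 0.245, the last in Teff cells. Other genes on that list were present. Ccr9 had means of 3.29 CPM in Naive, 35.4 in Teff, 8.72 in Anergic and 14.7 in Treg cells. In the same order Irf8 had means of 4.61, 15.1, 18.02 and 25.7 CPM, and Tcf4 of 4.42, 4.02, 6.71 and 6.52. The summed level of the list, which includes Bst2, was 28.4 to 30.5 CPM in Naive, 69.2 to 72.5 in Teff, 40.6 to 48.6 in Anergic and 60.2 to 69.7 in Treg libraries. The 10 myeloid and dendritic markers summed to 3.72 to 5.31 CPM in Naive, 11.7 to 12.3 in Teff, 8.65 to 11.3 in Anergic and 3.88 to 7.07 in Treg libraries. NK and innate-like T cell markers followed the subsets, with sums of 289 to 354 CPM in Teff, 71.1 to 82.3 in Anergic, 6.70 to 9.88 in Treg and 5.31 to 7.93 in Naive libraries. All 5 of these 7 markers that were tested were higher in Teff than Naive cells and lower in Treg than Teff cells. Of the 7, Ncr1 was at 0 in all Anergic and Treg libraries and at a mean of 0.0413 CPM in the others. The 8 B cell markers summed to 198 to 227 CPM in Naive, 181 to 197 in Teff, 223 to 286 in Anergic and 413 to 505 in Treg libraries. Most of it was Ighm, with means of 214, 174, 209 and 443 CPM, and Cd22 was highest in Anergic cells, with 0.101, 12.6, 27.9 and 2.87 CPM in Naive, Teff, Anergic and Treg cells. The part of such cells in the results was not tested.

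Anergic cells held lower levels of 18 to 20 of the 43 genes than Teff or Treg cells, with Oas2, Oasl1, Gbp3 and Usp18 among the largest differences. Teff and Treg cells in turn held higher levels of 15 and 17 of them than Naive cells, led by Mx1 and Gbp3. A gene is called here when its adjusted p is under 0.05 in edgeR's quasi-likelihood test over all genes, and levels and fold changes are in CPM, read counts scaled to library size by TMM. The parentheses after a fold give its log2 change with the standard error (SE). Against Teff, 18 of the 43 genes were lower and 2 higher in Anergic cells (12.7% of all genes tested were lower and 13.9% higher), with a median log2 fold change of -0.18 against a median near 0 over all genes. Against Treg, 20 were lower and 6 higher in Anergic cells (15.3% and 15.6% of all genes). Against Naive, 13 were lower and 12 higher in Anergic cells (21.3% and 25% of all genes).

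**Figure D1:**
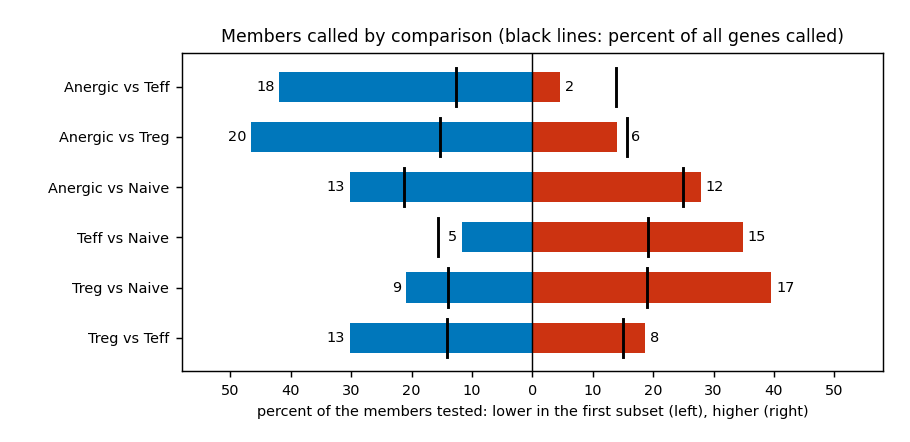
Interferon-stimulated genes called in each of the 6 comparisons, as a percent of the 43 tested; bars to the left are lower and bars to the right higher in the first-named subset, numbers at the bars are gene counts, and black lines mark the percent of all 13393 genes called in that direction. The lower bars of Anergic against Teff (18 genes) and Anergic against Treg (20 genes) extend farthest past their lines.

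In Teff against Naive cells 15 genes were higher and 5 lower (19.2% and 15.7% of all genes), and in Treg against Naive cells 17 were higher and 9 lower (19% and 13.9%). In Treg against Teff cells 8 were higher and 13 lower (15% and 14.1%). Comparisons that name the same subset share its libraries and are not independent of each other. Some counts hung on single libraries: the 6 genes higher in Anergic than Treg cells became 3 without Anergic 2 or Anergic 3, and the 5 lower in Teff than Naive cells became 3 without Naive 2 or Teff 3. Scaling by total counts alone, which moved the median of all genes by -0.13 in Anergic against Treg cells, gave 1 higher and 21 lower in Anergic than Teff cells and 3 higher and 21 lower in Anergic than Treg cells. It gave 16 higher and 3 lower in Teff than Naive cells and 20 higher and 9 lower in Treg than Naive cells. Under it the share of higher among all called genes was 34.9% in place of 52.3% for Anergic against Teff, 30.4% in place of 50.5% for Anergic against Treg and 72.2% in place of 57.7% for Treg against Naive.

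**Figure D2:**
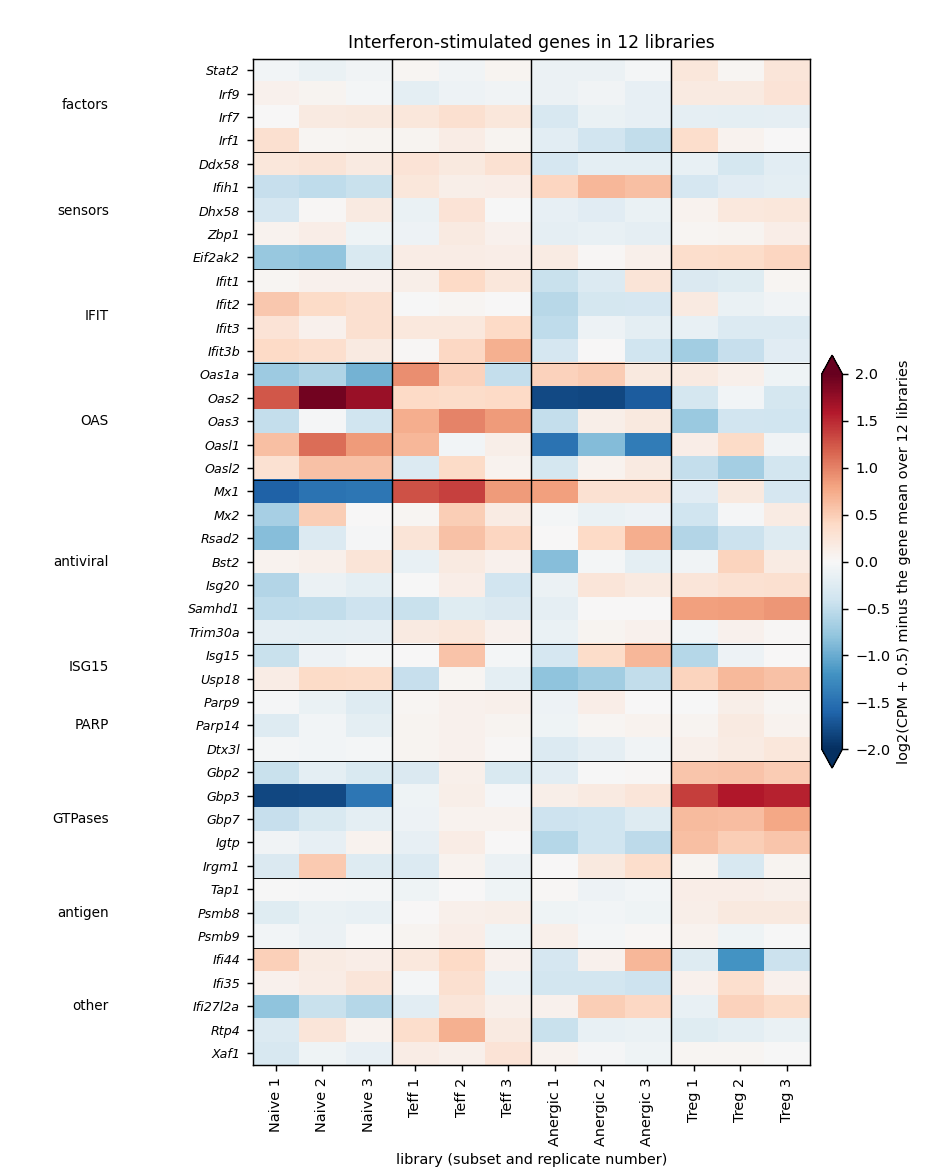
Level of the 43 genes in the 12 libraries, as log2(CPM + 0.5) minus the mean of the gene over the 12 libraries; colours are capped at 2 either way, red is above and blue below the mean, and rows are grouped by role. Oas2 and Oasl1 are blue in the 3 Anergic columns, Gbp3 and Mx1 in the 3 Naive columns, and Gbp2, Gbp3, Gbp7, Igtp and Samhd1 are red in the 3 Treg columns.

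In the quasi-likelihood test across the 4 subsets together 35 of the 43 genes were called (56.1% of all genes). The 8 not called were Dhx58, Mx2, Bst2, Isg15, Parp9, Irgm1, Psmb9 and Xaf1. Bst2 and Xaf1 lay close to the threshold (adjusted p = 0.0518 and 0.0548). Dhx58, Bst2, Parp9 and Xaf1 were called in at least 1 comparison of 2 subsets. Oas2, Gbp3, Mx1 and Oasl1 had the largest folds between their highest and lowest subset means, at 13.1, 9.48, 7.201 and 4.93. Another 8 genes with at least 5 CPM in their highest subset had a fold of 2 to 3, and the rest of the 43 stayed below 2 at that level.

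**Figure D3:**
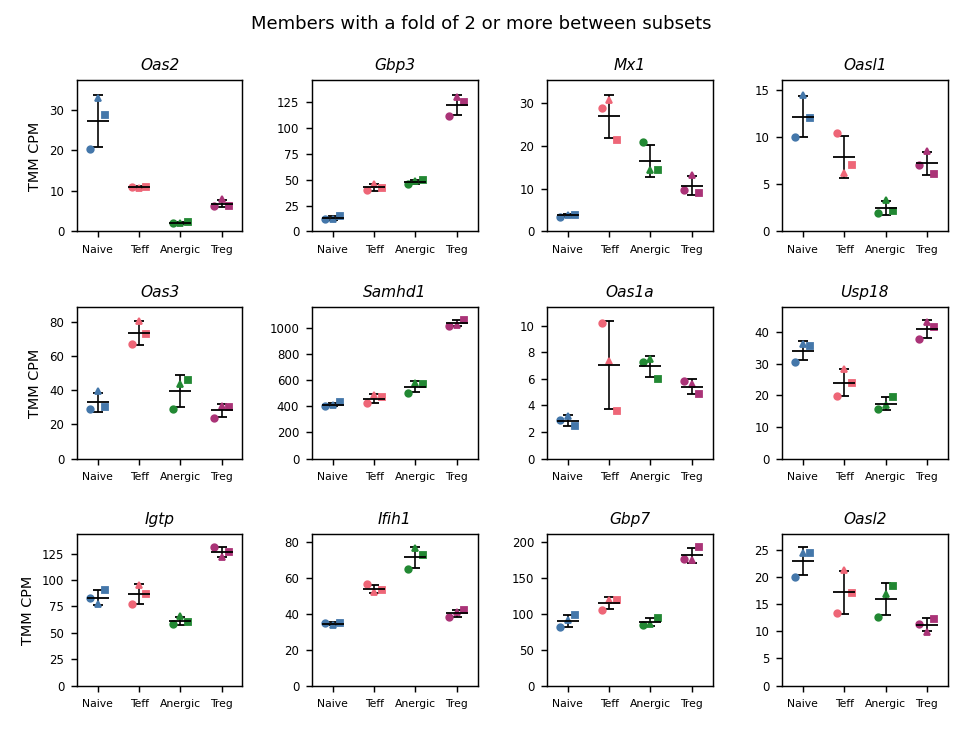
CPM of the 12 genes with at least 5 CPM in their highest subset and a fold of 2 or more between subset means; circles, triangles and squares are replicates 1, 2 and 3, horizontal marks are means and error bars SD (n = 3), and each panel has its own axis from 0. Oas2 is highest in Naive, Mx1 and Oas3 in Teff, Ifih1 in Anergic and Gbp3, Samhd1, Igtp and Gbp7 in Treg libraries.

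The transcription factor genes of the response were lowest or close to lowest in Anergic cells, by modest margins. Irf1, a factor induced strongly by interferon gamma, stood at 236, 194 and 196 CPM in Naive, 196, 209 and 196 in Teff, 163, 145 and 134 in Anergic and 242, 197 and 189.6 in Treg libraries. The 3 Anergic libraries lay below all 9 others, and the other subsets overlapped. Irf1 was 1.36-fold lower (log2 change -0.45, SE 0.09, adjusted p = 0.000563) in Anergic than Teff cells. Against Treg cells it was 1.43-fold lower (log2 change -0.51, SE 0.09, adjusted p = 8.82e-05), and against Naive cells 1.42-fold lower (log2 change -0.51, SE 0.09, adjusted p = 6.88e-05).

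Irf7, which amplifies type I interferon production, stood at 69.5, 78.4 and 79.4 CPM in Naive, 80.5, 86.8 and 80.8 in Teff, 54.9, 63.2 and 61.8 in Anergic and 60.9, 60.2 and 61.0 in Treg libraries. Anergic and Treg libraries lay below all Naive and Teff libraries. The gene was 1.38-fold lower (log2 change -0.46, SE 0.07, adjusted p = 2.50e-05) in Anergic and 1.36-fold lower (log2 change -0.45, SE 0.07, adjusted p = 3.21e-05) in Treg than in Teff cells. Anergic and Treg cells differed by a log2 fold change of -0.02 (adjusted p = 0.882). Irf9, the DNA-binding part of ISGF3, stood at 128, 126 and 118 CPM in Naive, 106, 113 and 115 in Teff, 112, 115 and 108 in Anergic and 137, 137 and 147 in Treg libraries. Stat2, its STAT partner, stood at 52.9, 49.9 and 52.5 CPM in Naive, 56.4, 52.1 and 56.9 in Teff, 50.6, 50.7 and 53.5 in Anergic and 64.7, 56.1 and 65.0 in Treg libraries. The 3 Treg libraries lay above all others for Irf9, and 2 of the 3 did so for Stat2. Irf9 was 1.26-fold higher (log2 change 0.33, SE 0.06, adjusted p = 0.000214) in Treg than Teff cells, and Stat2 1.20-fold higher (log2 change 0.26, SE 0.08, adjusted p = 0.00937) in Treg than Naive cells. The Irf9 call in Treg against Naive was lost without Naive 2, Naive 3, Treg 1, Treg 2 or Treg 3 and with DESeq2, DESeq2 size factors or no filter on low counts (adjusted p up to 0.178). The Stat2 call in Treg against Naive was lost without Naive 2, Treg 1 or Treg 3 (adjusted p up to 0.052), and that in Anergic against Treg without Treg 1 or Treg 3 (adjusted p up to 0.0528).

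The cytosolic sensors did not move together. Ifih1 encodes MDA5, a sensor of long double-stranded RNA, and stood at 34.9, 33.6 and 34.9 CPM in Naive, 56.2, 51.8 and 52.9 in Teff, 64.7, 76.4 and 72.7 in Anergic and 38.1, 40.9 and 41.9 in Treg libraries. Every Anergic library lay above every other library, and the Teff libraries lay above those of Treg and Naive. Ifih1 was 1.33-fold higher (log2 change 0.41, SE 0.08, adjusted p = 0.000189) in Anergic than Teff cells. Against Treg cells it was 1.77-fold higher (log2 change 0.82, SE 0.08, adjusted p = 8.44e-09), and against Naive cells 2.07-fold higher (log2 change 1.05, SE 0.08, adjusted p = 1.15e-10). It was the 1 gene of the 43 called higher in Anergic cells than in all 3 other subsets.

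Ddx58, which encodes the related sensor RIG-I, went the other way: its mean was 118 ± 3.04 CPM in Naive and 121 ± 4.74 in Teff but 85.5 ± 4.44 in Anergic and 85.8 ± 6.23 in Treg cells (SD, n = 3 here and below). It was 1.42-fold lower (log2 change -0.50, SE 0.07, adjusted p = 3.11e-06) in Anergic than Teff cells, without overlap of libraries. Eif2ak2, the RNA-activated kinase PKR, was lowest in Naive cells (25.8 ± 5.13 CPM) and highest in Treg cells (51.5 ± 1.68), a difference of 2.01-fold (log2 change 1.01, SE 0.10, adjusted p = 1.77e-08). Zbp1, a sensor of Z-form nucleic acids linked to necroptosis, was lower in Anergic cells (93.7 ± 1.603 CPM) than in the 3 other subsets (109 to 111), by folds of 1.16 to 1.19. Dhx58, which encodes the regulator LGP2, ran from 19.6 CPM in Anergic to 25.0 in Treg cells. The Zbp1 call against Teff was lost without Teff 2 or Teff 3 (adjusted p up to 0.117). Against Treg it was lost without Treg 3 (adjusted p up to 0.0688), and against Naive without Naive 1 or Naive 2 (adjusted p up to 0.115). In Anergic against Treg cells Eif2ak2 lost its call without Anergic 2 or Treg 3 (adjusted p up to 0.0806) and Dhx58 without Anergic 1, Anergic 2, Anergic 3, Treg 2 or Treg 3 and with DESeq2 (adjusted p up to 0.125). Ifih1 in Treg against Naive was lost without Anergic 3, Naive 1, Naive 2, Naive 3, Teff 2, Teff 3, Treg 2 or Treg 3 and with DESeq2, limma voom, DESeq2 size factors, abundant entries left out or no filter on low counts (adjusted p up to 0.136).

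All 4 IFIT genes, whose proteins bind foreign RNA ends and block translation, were lower in Anergic than in Teff cells (12.7% of all genes were). The calls of Ifit2 and Ifit3 held in every alternative, and those of Ifit1 and Ifit3b were lost in several. The 4 genes lie within 1 cluster on chromosome 19. The mean of Ifit2 was 86.0 ± 6.46 CPM in Naive, 64.6 ± 1.063 in Teff, 64.1 ± 7.63 in Treg and 48.1 ± 4.00 in Anergic cells. Naive libraries were the highest and Anergic libraries the lowest, and Ifit2 was 1.79-fold lower (log2 change -0.84, SE 0.09, adjusted p = 1.75e-08) in Anergic than Naive cells and 1.34-fold lower (log2 change -0.43, SE 0.09, adjusted p = 0.00056) than in Teff cells. Ifit3 split the subsets in pairs, with 19.1 ± 1.65 CPM in Naive and 19.7 ± 1.505 in Teff against 13.5 ± 1.99 in Anergic and 13.7 ± 0.726 in Treg cells. Ifit3b was 1.93-fold lower (log2 change -0.95, SE 0.24, adjusted p = 0.00405) in Treg than Teff cells and 1.80-fold lower (log2 change -0.85, SE 0.25, adjusted p = 0.00983) than in Naive cells. Ifit1 ranged from 32.8 ± 4.32 CPM in Treg to 43.9 ± 4.40 in Teff cells. Ifit3 and Ifit3b share 51.2% and 45% of their 50-base stretches with other genes, mainly each other, and Ifit1 7.13%, so reads could move between these entries. In Anergic against Teff cells Ifit1 lost its call without Anergic 1, Anergic 2, Teff 2 or Teff 3 and with a fit of the compared subsets alone (adjusted p up to 0.163). Ifit3b lost it there without Anergic 1, Anergic 3, Teff 2 or Teff 3 and with DESeq2 or a fit of the compared subsets alone (adjusted p up to 0.193). Ifit1 in Treg against Teff was lost without Teff 2, Treg 1 or Treg 2 (adjusted p up to 0.0766). Ifit3b in Treg against Naive was lost without Treg 1 (adjusted p up to 0.0591).

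The OAS family genes Oas1a, Oas2 and Oas3 each had a different order of subset means, although they are close neighbours on chromosome 5. They lie at 120730333 to 120907521 in build GRCm38, the build of all gene positions here. These enzymes make the oligoadenylate messenger that activates RNase L. Oas2 stood at 20.3, 32.8 and 28.7 CPM in Naive, 11.02, 10.8 and 11.1 in Teff, 2.00, 2.00 and 2.26 in Anergic and 6.37, 7.98 and 6.35 in Treg libraries. Naive libraries were the highest, Anergic libraries the lowest, and no subset overlapped another. Oas2 was 13.04-fold lower (log2 change -3.70, SE 0.21, adjusted p = 2.93e-13) in Anergic than Naive cells, 5.24-fold lower (log2 change -2.39, SE 0.23, adjusted p = 1.15e-08) than in Teff and 3.28-fold lower (log2 change -1.72, SE 0.24, adjusted p = 4.34e-06) than in Treg cells. Teff cells were 2.49-fold lower (log2 change -1.32, SE 0.16, adjusted p = 3.82e-07) and Treg cells 3.97-fold lower (log2 change -1.99, SE 0.17, adjusted p = 9.34e-10) than Naive cells.

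Oas3 stood at 29.0, 39.4 and 30.5 CPM in Naive, 67.1, 80.9 and 72.9 in Teff, 28.9, 43.6 and 46.2 in Anergic and 23.9, 30.7 and 30.5 in Treg libraries. The Teff libraries lay above all others, and Naive, Anergic and Treg libraries overlapped. It was 1.87-fold lower (log2 change -0.90, SE 0.13, adjusted p = 8.99e-06) in Anergic and 2.61-fold lower (log2 change -1.38, SE 0.14, adjusted p = 1.55e-08) in Treg than in Teff cells. Teff cells were 2.22-fold higher (log2 change 1.15, SE 0.14, adjusted p = 2.57e-07) than Naive cells. Its call in Anergic against Treg, a 1.40-fold difference with overlapping libraries, was lost without Anergic 2, Anergic 3 or Treg 1 and with total-count scaling (adjusted p up to 0.0773). Oas1a, a low entry, stood at 2.90, 3.22 and 2.43 CPM in Naive, 10.2, 7.31 and 3.57 in Teff, 7.29, 7.51 and 5.99 in Anergic and 5.86, 5.57 and 4.82 in Treg libraries. All Naive libraries lay below the rest, and the Teff values spread from 3.57 to 10.2. It was 2.46-fold higher (log2 change 1.30, SE 0.30, adjusted p = 0.0013) in Teff and 2.42-fold higher (log2 change 1.27, SE 0.30, adjusted p = 0.00111) in Anergic than Naive cells. The 1.89-fold difference of Treg from Naive cells (adjusted p = 0.0231) was lost without Naive 1, Naive 3, Treg 1 or Treg 2 and with limma voom (adjusted p up to 0.0823). Oas1a shares 57.6% of its 50-base stretches with Oas1g, so its counts are uncertain.

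The OAS-like genes are a neighbouring pair elsewhere on chromosome 5. Oasl1, which in mice restrains Irf7 translation, stood at 10.1, 14.5 and 11.99 CPM in Naive, 10.4, 6.20 and 7.01 in Teff, 2.00, 3.29 and 2.13 in Anergic and 7.07, 8.49 and 6.11 in Treg libraries. Anergic libraries were below all others and Naive libraries were mostly the highest, with Teff 1 inside the Naive range. Oasl1 was 3.17-fold lower (log2 change -1.67, SE 0.26, adjusted p = 2.46e-05) in Anergic than Teff cells. Against Treg cells it was 2.89-fold lower (log2 change -1.53, SE 0.26, adjusted p = 6.25e-05), and against Naive cells 4.90-fold lower (log2 change -2.29, SE 0.25, adjusted p = 5.57e-08). Teff cells were 1.54-fold lower (log2 change -0.63, SE 0.21, adjusted p = 0.0241) than Naive cells, a call lost without Naive 2, Naive 3, Teff 2 or Teff 3 and with total-count scaling (adjusted p up to 0.149). Treg cells were 1.69-fold lower (log2 change -0.76, SE 0.21, adjusted p = 0.00735) than Naive cells, a call lost without Naive 2 (adjusted p up to 0.064). Oasl2 stood at 19.99, 24.4 and 24.4 CPM in Naive, 13.3, 21.2 and 16.96 in Teff, 12.6, 16.9 and 18.4 in Anergic and 11.4, 9.88 and 12.3 in Treg libraries. The Treg libraries lay below all others, while Teff libraries spread across the ranges of Naive and Anergic cells. Oasl2 was 2.04-fold lower (log2 change -1.03, SE 0.16, adjusted p = 2.22e-05) in Treg than Naive cells, 1.52-fold lower than in Teff (adjusted p = 0.00738) and 1.41-fold higher in Anergic than Treg cells (log2 change 0.50, SE 0.17, adjusted p = 0.0259). The last 2 calls were lost without Teff 2 (adjusted p up to 0.0734) and without Anergic 2, Anergic 3, Treg 1 or Treg 2 and with total-count scaling (adjusted p up to 0.124). In Anergic cells it was 1.44-fold below Naive cells (adjusted p = 0.00845), a call lost without Anergic 1 (adjusted p up to 0.0581). In Teff cells it was 1.34-fold below Naive cells (log2 change -0.42, SE 0.16, adjusted p = 0.0402), lost without Naive 2, Naive 3, Teff 1 or Teff 3 and with DESeq2 or total-count scaling (adjusted p up to 0.242).

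Among the direct antiviral effectors, Mx1 and Samhd1 moved most, in different subsets. Mx1, the myxovirus resistance GTPase that is disrupted in many laboratory strains (chromosome 16, 97447035 to 97462907), stood at 3.45, 3.84 and 3.95 CPM in Naive, 28.9, 30.7 and 21.3 in Teff, 20.8, 14.4 and 14.4 in Anergic and 9.80, 13.3 and 9.05 in Treg libraries. Naive libraries were lowest and Teff libraries highest, with no overlap between any 2 subsets. Whether the Mx1 transcript of these mice encodes a working protein cannot be read from gene counts. Mx1 was 7.19-fold higher (log2 change 2.85, SE 0.21, adjusted p = 6.04e-11) in Teff than Naive cells, 4.42-fold higher (log2 change 2.14, SE 0.22, adjusted p = 1.35e-08) in Anergic and 2.84-fold higher (log2 change 1.51, SE 0.23, adjusted p = 1.05e-05) in Treg cells. Against Teff it was 1.63-fold lower (log2 change -0.70, SE 0.16, adjusted p = 0.00176) in Anergic and 2.53-fold lower (log2 change -1.34, SE 0.17, adjusted p = 8.41e-07) in Treg cells. Its 1.56-fold higher level in Anergic than Treg cells (log2 change 0.64, SE 0.18, adjusted p = 0.00701) was lost without Anergic 1 (adjusted p up to 0.0762).

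Samhd1, a hydrolase of deoxynucleotides that restricts reverse transcription and is abundant in resting T cells (chromosome 2, 157097533 to 157135265), stood at 403, 405 and 428 CPM in Naive, 420.2, 485 and 466 in Teff, 502, 574 and 572 in Anergic and 1014, 1023 and 1057 in Treg libraries. The 3 Treg libraries were far above every library of the other subsets. Samhd1 was 2.502-fold higher (log2 change 1.32, SE 0.07, adjusted p = 1.41e-13) in Treg than Naive cells and 2.26-fold higher (log2 change 1.17, SE 0.07, adjusted p = 1.44e-12) than in Teff cells. It was 1.20-fold higher (log2 change 0.26, SE 0.07, adjusted p = 0.00464) in Anergic than Teff cells, a call lost with total-count scaling (adjusted p up to 0.0848). Samhd1 carried 1031 of the 4123 CPM that the 43 genes summed to in Treg cells (4123 ± 65.6), against sums of 3013 ± 52.8 in Naive, 3358 ± 157 in Teff and 3099.7 ± 136 in Anergic cells. Without it the sums were 2601 ± 50.02 in Naive, 2901 ± 126 in Teff, 2551 ± 94.9 in Anergic and 3091 ± 46.3 in Treg cells.

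Rsad2, which encodes viperin, was 1.84-fold higher (log2 change 0.88, SE 0.21, adjusted p = 0.00181) in Anergic than Treg cells and 1.87-fold lower (log2 change -0.91, SE 0.21, adjusted p = 0.00143) in Treg than Teff cells. Its means were 7.07 ± 2.09 CPM in Naive, 12.5 ± 1.43 in Teff, 12.3 ± 3.13 in Anergic and 6.66 ± 0.834 in Treg cells. Isg20, an RNA exonuclease gene, ran from 14.2 ± 2.47 CPM in Naive to 21.5 ± 0.604 in Treg cells, a 1.505-fold difference (adjusted p = 0.00286). Trim30a, a TRIM family ubiquitin ligase gene, ran from 82.3 ± 0.813 in Naive to 106 ± 5.11 in Teff cells (1.28-fold, adjusted p = 0.000239). Bst2, the tetherin gene that holds budding virus at the cell surface, ran from 11.8 ± 3.41 CPM in Anergic to 17.2 ± 3.202 in Treg cells, and Mx2 from 7.62 ± 0.244 to 9.73 ± 1.72 in Teff cells with no call in any comparison. In Anergic against Naive cells Isg20 lost its call without Anergic 2, Anergic 3 or Naive 1 and with total-count scaling (adjusted p up to 0.171). Trim30a lost it there without Anergic 2, Anergic 3, Naive 1, Naive 2 or Naive 3 and with total-count scaling or no filter on low counts (adjusted p up to 0.149), and in Treg against Naive without Naive 1, Naive 2, Naive 3, Treg 2 or Treg 3 and with DESeq2 or no filter on low counts (adjusted p up to 0.128). Bst2 was called lower in Anergic than in Treg and Naive cells, and these calls were lost without Anergic 1, Treg 2 or Treg 3 (adjusted p up to 0.167) and without Anergic 1, Naive 2 or Naive 3 (adjusted p up to 0.204).

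The ubiquitin-like modifier gene Isg15 and the gene of its protease Usp18 behaved differently. Isg15 stood at 10.1, 12.9 and 13.5 CPM in Naive, 13.9, 20.8 and 13.4 in Teff, 10.8, 17.96 and 22.2 in Anergic and 9.20, 12.9 and 13.99 in Treg libraries. All 4 subsets overlapped, and no comparison was called: the largest difference, Anergic against Treg, was 1.41-fold (log2 change 0.50, SE 0.21, adjusted p = 0.082). Usp18, which also blocks signalling at IFNAR2, stood at 30.7, 36.3 and 35.7 CPM in Naive, 19.9, 28.3 and 24.1 in Teff, 15.6, 16.9 and 19.6 in Anergic and 37.9, 43.5 and 41.7 in Treg libraries. Treg and Naive libraries lay above Teff libraries, and Anergic libraries lay at the bottom, below all Teff libraries. Usp18 was 2.36-fold lower (log2 change -1.24, SE 0.12, adjusted p = 1.24e-08) in Anergic than Treg cells and 1.98-fold lower (log2 change -0.98, SE 0.12, adjusted p = 4.39e-07) than in Naive cells. Against Teff it was 1.39-fold lower (log2 change -0.47, SE 0.13, adjusted p = 0.00643) in Anergic cells, a call lost without Teff 2 (adjusted p up to 0.0569). It was 1.70-fold higher (log2 change 0.77, SE 0.11, adjusted p = 9.75e-06) in Treg than Teff and 1.42-fold lower (log2 change -0.51, SE 0.12, adjusted p = 0.00141) in Teff than Naive cells.

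Dtx3l, a ubiquitin ligase gene whose product pairs with PARP9, was 1.26-fold lower (log2 change -0.34, SE 0.06, adjusted p = 0.000179) in Anergic (182 ± 12.6 CPM) than Treg cells (229 ± 10.2) and 1.17-fold lower than in Teff cells (adjusted p = 0.00762). Parp14, an ADP-ribosyltransferase gene, ran from 230.2 ± 17.2 CPM in Naive to 278 ± 13.5 in Treg cells (1.21-fold, adjusted p = 0.00251), and Parp9 from 69.5 ± 5.41 to 80.8 ± 1.69 in Teff cells. Parp9 and Dtx3l overlap on opposite strands over 9.4% and 8% of their exon lengths, and whether reads were counted by strand is not stated in the labels. In Teff against Naive cells Parp9 lost its call without Naive 2, Naive 3, Teff 2 or Teff 3 (adjusted p up to 0.14). Parp14 lost it there without Naive 1 (adjusted p up to 0.0524), and in Anergic against Naive without Anergic 2, Anergic 3, Naive 1 or Naive 3 and with total-count scaling, no filter on low counts or a fit of the compared subsets alone (adjusted p up to 0.19). Dtx3l in Treg against Naive was lost without Naive 2 or Treg 3 (adjusted p up to 0.0808).

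The interferon-inducible GTPases, which act on the vacuoles of intracellular pathogens, included 4 of 5 that were higher in Treg cells than in each other subset (4.07% of all genes were), while the fifth, Irgm1, was called in no comparison. Gbp3 (chromosome 3, 142560026 to 142573209) stood at 11.6, 11.8 and 15.2 CPM in Naive, 39.7, 45.7 and 41.8 in Teff, 46.1, 48.3 and 49.9 in Anergic and 111, 129.98 and 124 in Treg libraries. Naive libraries were lowest and Treg libraries highest, with Teff libraries below Anergic libraries between them and no overlap anywhere. Gbp3 was 9.51-fold higher (log2 change 3.25, SE 0.10, adjusted p = 6.03e-18) in Treg than Naive cells and 2.87-fold higher (log2 change 1.52, SE 0.08, adjusted p = 4.29e-13) than in Teff cells. It was 2.53-fold lower (log2 change -1.34, SE 0.08, adjusted p = 3.89e-12) in Anergic than Treg cells. Teff cells were 3.32-fold higher (log2 change 1.73, SE 0.11, adjusted p = 4.82e-12) and Anergic cells 3.76-fold higher (log2 change 1.91, SE 0.11, adjusted p = 3.49e-13) than Naive cells. Anergic and Teff cells differed by a log2 fold change of 0.18 (adjusted p = 0.141).

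Gbp7, a neighbouring guanylate-binding protein gene (chromosome 3, 142530342 to 142550149), stood at 82.2, 91.5 and 99.0 CPM in Naive, 105, 119 and 119.8 in Teff, 85.0, 85.7 and 95.04 in Anergic and 176, 175 and 194 in Treg libraries. All Treg libraries were above the rest, and Naive and Anergic libraries overlapped. Gbp7 was 2.05-fold lower (log2 change -1.04, SE 0.08, adjusted p = 1.03e-10) in Anergic than Treg cells and 1.58-fold higher (log2 change 0.66, SE 0.07, adjusted p = 1.42e-07) in Treg than Teff cells. Gbp2, in the same cluster, had means of 63.5 ± 5.55, 70.9 ± 11.9, 75.5 ± 6.60 and 115 ± 2.64 CPM in Naive, Teff, Anergic and Treg cells and was 1.63-fold higher (log2 change 0.70, SE 0.09, adjusted p = 1.39e-06) in Treg than Teff cells. Igtp, the immunity-related GTPase IRGM3, stood at 82.6, 77.1 and 90.5 CPM in Naive, 77.3, 95.6 and 87.1 in Teff, 57.9, 65.5 and 59.8 in Anergic and 132, 122 and 127 in Treg libraries. Anergic libraries were the lowest and Treg libraries the highest. Igtp was 2.07-fold lower (log2 change -1.05, SE 0.08, adjusted p = 1.85e-10) in Anergic than Treg cells, 1.42-fold lower (log2 change -0.50, SE 0.08, adjusted p = 3.51e-05) than in Teff and 1.36-fold lower (log2 change -0.45, SE 0.08, adjusted p = 8.67e-05) than in Naive cells. Irgm1, a regulator of the other immunity-related GTPases, had subset means of 7.11 to 8.89 CPM. Gbp7 shares 12.7% and Igtp 11.8% of its 50-base stretches with other entries. The Gbp2 call in Anergic against Naive cells was lost without Anergic 2, Anergic 3, Naive 1 or Naive 3 and with total-count scaling (adjusted p up to 0.173).

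The 3 antigen processing genes lie side by side on chromosome 17 and varied little. Tap1, a subunit gene of the peptide transporter, stood at 223, 220.3 and 218 CPM in Naive, 212, 226 and 212 in Teff, 228, 208 and 216 in Anergic and 246, 245 and 242 in Treg libraries. Treg libraries lay just above all others. Tap1 was 1.13-fold higher (log2 change 0.17, SE 0.06, adjusted p = 0.0289) in Treg than Teff cells and 1.12-fold lower (log2 change -0.17, SE 0.06, adjusted p = 0.0328) in Anergic than Treg cells. The first call was lost without Teff 1, Teff 3, Treg 1, Treg 2 or Treg 3 and with no filter on low counts (adjusted p up to 0.117). The second was lost without Anergic 2, Anergic 3, Treg 1, Treg 2 or Treg 3 and with no filter on low counts (adjusted p up to 0.146). Psmb8, an immunoproteasome subunit gene, stood at 234, 254 and 249.97 CPM in Naive, 279, 298 and 302 in Teff, 262, 267 and 262 in Anergic and 299, 318 and 316 in Treg libraries. Naive libraries were the lowest, and the gene was 1.26-fold higher (log2 change 0.34, SE 0.06, adjusted p = 9.96e-05) in Treg and 1.19-fold higher (log2 change 0.25, SE 0.06, adjusted p = 0.00216) in Teff than Naive cells. Psmb9, another immunoproteasome subunit gene, stood at 53.1, 50.4 and 54.9 CPM in Naive, 56.9, 60.4 and 51.9 in Teff, 59.3, 53.8 and 55.9 in Anergic and 58.003, 51.6 and 54.7 in Treg libraries. All 4 subsets overlapped, and no comparison was called; its largest log2 fold change was 0.10 (Teff against Naive, adjusted p = 0.373). Psmb8 overlaps an entry on the other strand over 14.7% of its exon length, and Tap1 and Psmb9 overlap each other over 3.87% and 5.79%.

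Of the 5 remaining genes Ifi27l2a was the most abundant of all 43 per kilobase of exon, with 184 CPM per kilobase as a mean of the 12 libraries, against 82.3 for Psmb8, 66.9 for Samhd1 and 0.661 for Ifi44 at the bottom. Ifi27l2a, which encodes a small hydrophobic ISG12 protein, was 1.93-fold higher (log2 change 0.95, SE 0.14, adjusted p = 4.24e-06) in Anergic (104 ± 15.3 CPM) than Naive cells (53.8 ± 6.87) and did not pass between Teff, Anergic and Treg cells. Rtp4, a chaperone gene of receptor transport, was 1.604-fold lower (log2 change -0.68, SE 0.14, adjusted p = 0.000759) in Anergic (16.7 ± 2.02 CPM) and 1.56-fold lower (log2 change -0.64, SE 0.14, adjusted p = 0.00111) in Treg (17.2 ± 0.653) than in Teff cells (26.7 ± 5.17). Ifi35 was lower in Anergic cells (23.5 ± 0.451 CPM) than in the 3 others (32.4 to 34.98), by 1.48-fold (log2 change -0.57, SE 0.11, adjusted p = 0.000287) against Treg. An entry on the other strand covers 16.8% of its exon length. Ifi44 was at 2.41 CPM in Treg and 4.48 to 4.70 in the others, and Xaf1, a gene of apoptosis control, ran from 16.2 in Naive to 20.9 in Teff cells. In Teff against Naive cells Rtp4 lost its call without Naive 1 or Teff 2 (adjusted p up to 0.203). Xaf1 lost it without Naive 1 or Teff 3 (adjusted p up to 0.0694). For Ifi44, all 3 calls of Treg cells were lost in some alternative. Against Naive this was without Naive 1 or Treg 2 (adjusted p up to 0.124). Against Teff it was without Teff 1, Teff 2, Treg 2 or Treg 3 (adjusted p up to 0.148), and against Anergic without Anergic 2, Anergic 3, Treg 2 or Treg 3 and with limma voom, total-count scaling or a fit of the compared subsets alone (adjusted p up to 0.269).

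Each subset stood at an end of the order for some of the genes, judged by calls in all 3 of its comparisons. Anergic cells were the lowest for 8 of the 43 genes (4.32% of all genes were lower in Anergic cells than in all 3 other subsets): Irf1, Zbp1, Ifit2, Oas2, Oasl1, Usp18, Igtp and Ifi35. They were the highest for 1, Ifih1 (6.63% of all genes). Treg cells were the highest for 6, Irf9, Samhd1, Gbp2, Gbp3, Gbp7 and Igtp (4.07% of all genes), and the lowest for Oasl2 and Ifi44 (2.55%). Naive cells were the lowest for 8, Ifih1, Eif2ak2, Oas1a, Mx1, Trim30a, Parp14, Gbp3 and Ifi27l2a (9.98% of all genes), and the highest for 4, Ifit2, Oas2, Oasl1 and Oasl2 (6.69%). Teff cells were the highest for 3, Oas3, Mx1 and Rtp4 (3.8%), and the lowest for 0 (1.44%). Of these sets, Zbp1, Usp18, Irf9, Oasl1, Oasl2, Ifi44, Ifih1 (below all others in Naive cells), Oas1a, Trim30a, Parp14 and Rtp4 include a call that was lost when 1 of the libraries named above was left out.

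By means alone, Treg cells were the highest for 19 genes, Teff for 15, Naive for 5 and Anergic for 4, and Anergic cells were the lowest for 18, Naive for 15, Treg for 7 and Teff for 3. This order takes any difference in means, down to 1.07-fold for Psmb9, and no share of all genes is given beside it. All 6 genes highest in Treg cells have a promoter window, and 4 of them hold an ISRE core and 3 a GAS match. Of the 8 genes lowest in Anergic cells 5 have a window, with 1 holding an ISRE core (Igtp, printed above) and 4 a GAS match. Of the 8 lowest in Naive cells 5 have a window, and 5 of these hold an ISRE core and 2 a GAS match. The 4 highest in Naive cells include 3 with a window, of which 0 hold an ISRE core and 1 a GAS match. Both genes lowest in Treg cells have a window, and 0 hold either motif. Among the 3 highest in Teff cells 1 has a window, with an ISRE core, as does Ifih1, the gene highest in Anergic cells. Over all 33 genes with a window 54.5% held an ISRE core and 33.3% a GAS match (3.99% and 9.55% of all genes with a window). These counts are small and carry no test.

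Upstream of these genes, interferon transcripts other than interferon gamma had at most 1 count in all. Of the 21 interferon ligand genes 19 had 0 counts in all 12 libraries, which allows up to 0.0308 CPM each over the pooled counts, and Ifnz had 1 count. Ifng stood at 0, 0 and 0 CPM in Naive, 27.4, 24.04 and 23.8 in Teff, 23.8, 14.2 and 10.5 in Anergic and 0.909, 0.507 and 1.29 in Treg libraries. No count of it was found in Naive cells, while every Teff and Anergic library lay above 10 CPM and the Anergic values spread widely. Taking 3 counts over the Naive libraries as the limit, Ifng was at least 183-fold higher in Teff, at least 118-fold higher in Anergic and at least 6.60-fold higher in Treg cells. It was 1.54-fold lower (log2 change -0.63, SE 0.20, adjusted p = 0.0241) in Anergic than Teff cells, a call lost without Anergic 2, Anergic 3 or Teff 1 (adjusted p up to 0.133). Teff and Anergic cells, the subsets with Ifng, were also those with NK and innate-like markers, and the part of such cells was not tested.

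The receptor genes showed their own order of the subsets. Ifngr1, the ligand-binding chain for interferon gamma, stood at 68.0, 67.8 and 66.9 CPM in Naive, 96.9, 135 and 116 in Teff, 24.6, 34.6 and 40.1 in Anergic and 157, 175 and 179 in Treg libraries. No subset overlapped another: Treg was highest and Anergic lowest. It was 3.52-fold lower (log2 change -1.81, SE 0.12, adjusted p = 3.15e-11) in Anergic than Teff cells and 5.16-fold lower (log2 change -2.37, SE 0.12, adjusted p = 1.57e-13) than in Treg cells. Ifngr2, the signalling chain, stood at 47.0, 46.5 and 47.5 CPM in Naive, 8.35, 10.2 and 8.16 in Teff, 10.1, 8.92 and 9.58 in Anergic and 36.8, 35.7 and 29.6 in Treg libraries. Teff and Anergic libraries shared a low range, and Ifngr2 was 5.28-fold lower (log2 change -2.40, SE 0.12, adjusted p = 5e-14) in Teff and 4.92-fold lower (log2 change -2.30, SE 0.12, adjusted p = 5.09e-14) in Anergic than Naive cells. Ifnar1 stood at 112, 105 and 106 CPM in Naive, 94.4, 92.8 and 95.1 in Teff, 83.6, 73.3 and 69.4 in Anergic and 166, 148 and 171 in Treg libraries. Anergic libraries were lowest and Treg libraries highest, and Ifnar1 was 2.14-fold lower (log2 change -1.10, SE 0.07, adjusted p = 1.77e-11) in Anergic than Treg cells. Ifnar2 stood at 41.4, 38.9 and 39.2 CPM in Naive, 61.0, 55.3 and 61.6 in Teff, 60.2, 62.2 and 57.8 in Anergic and 66.5, 63.9 and 65.7 in Treg libraries. Naive libraries lay below the rest, and Ifnar2 was 1.64-fold higher (log2 change 0.72, SE 0.07, adjusted p = 2.61e-08) in Treg than Naive cells. Of the 5 receptor genes tested 4 were lower and 0 higher in Anergic than Treg cells (15.3% and 15.6% of all genes). In Treg against Teff cells 4 were higher and 0 lower (15% and 14.1%).

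**Figure D4:**
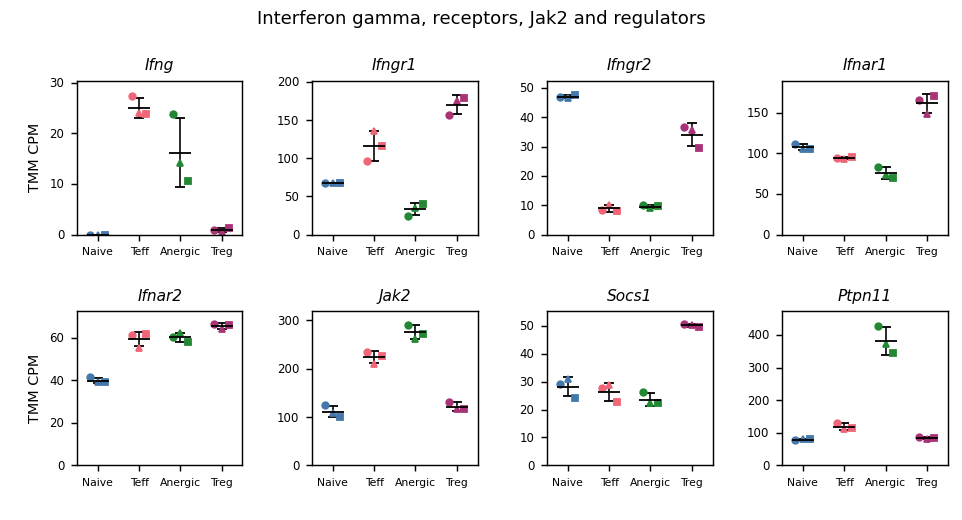
CPM of interferon gamma, 4 interferon receptor genes, Jak2 and the regulators Socs1 and Ptpn11 by subset; circles, triangles and squares are replicates 1, 2 and 3, horizontal marks are means and error bars SD (n = 3), and each panel starts at 0. Ifng is highest in Teff and Anergic libraries, and Ifngr1 is lowest in Anergic and highest in Treg libraries. Ptpn11 is high in the 3 Anergic libraries alone among the 12.

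Of the genes between receptor and nucleus, Jak2, the kinase of IFNGR2, stood at 125, 108 and 101 CPM in Naive, 233, 209.8 and 227 in Teff, 291, 262 and 272 in Anergic and 131, 116 and 116 in Treg libraries. Anergic libraries were the highest, followed by Teff libraries. Jak2 was 1.23-fold higher (log2 change 0.30, SE 0.07, adjusted p = 0.0036) in Anergic than Teff cells. It was 2.47-fold higher (log2 change 1.31, SE 0.08, adjusted p = 1.08e-12) in Anergic than Naive cells. Of 9 negative regulators 3 were higher and 3 lower in Anergic than Teff cells (13.9% and 12.7% of all genes), and 3 were higher and 4 lower than in Treg cells (15.6% and 15.3%). Ptpn11, the phosphatase SHP2, was 3.205-fold higher (log2 change 1.68, SE 0.08, adjusted p = 2.15e-14) in Anergic (382 ± 42.1 CPM) than Teff cells (119 ± 9.82). Socs1, a JAK inhibitor gene, was 1.90-fold higher (log2 change 0.92, SE 0.10, adjusted p = 1.05e-07) in Treg (50.1 ± 0.397 CPM) than Teff cells (26.4 ± 3.22). These 3 genes were picked for naming after their values were seen.

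A further 78 interferon-stimulated genes outside the 43, of which 66 were tested, were counted the same way. In Anergic against Teff cells 7 were higher and 23 lower (13.9% and 12.7% of all genes). Against Treg cells 8 were higher and 27 lower in Anergic cells (15.6% and 15.3%), and against Naive cells 18 higher and 21 lower (25% and 21.3%). In Teff against Naive cells 26 were higher and 5 lower (19.2% and 15.7%), and in Treg against Naive cells 25 and 9 (19% and 13.9%). In Treg against Teff cells 13 were higher and 14 lower (15% and 14.1%). Anergic cells were lower than all 3 other subsets for 13 of the 66 (4.32% of all genes) and higher for 1 (6.63%), Cxcl10, a chemokine gene at 11.7 ± 1.76 CPM in Anergic and 0.602 to 3.72 in the others. The largest such deficits in Anergic cells were in Ifi213 (36.7 ± 4.87 CPM against 71.2 to 116), Ifit1bl1 (30.1 ± 5.93 against 54.1 to 79.5) and Ifi206 (66.8 ± 9.29 against 110.3 to 136). Treg cells were higher than all others for 8 (4.07% of all genes), led by Apol9b (19.9 ± 2.66 CPM against 1.33 to 3.66) and 2 more guanylate-binding protein genes, Gbp10 (13.2 ± 0.904) and Gbp5 (89.8 ± 2.71). Teff cells were higher than all others for 4 (3.8%), led by Epsti1 (319 ± 16.9 CPM against 112 to 168). Naive cells were lower for 11 (9.98%), led by Cxcl10 and Ube2l6, the conjugating enzyme gene for ISG15 (1.07 ± 0.375 CPM against 4.35 to 9.12). Of 15 genes of the MHC class I presentation list 10 were higher and 0 lower in Treg than Naive cells (19% and 13.9% of all genes), and 8 were lower and 0 higher in Anergic than Treg cells (15.3% and 15.6%).

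Within subsets, the libraries numbered 1 tended to hold lower levels of the 43 genes. The median deviation of the 43 from their subset mean, as log2 CPM with a prior count of 2, was -0.07 in Naive 1, -0.06 in Teff 1, -0.10 in Anergic 1 and -0.04 in Treg 1, and -0.01 to 0.10 in the other 8 libraries. Over all genes tested the median deviation was within 0.01 of 0 in every library. Between 11 and 16 of the 43 genes lay above their subset mean in the libraries numbered 1, and between 18 and 36 in the others. For 8 of the 43 genes (18.6%, against 4.20% of all genes) the library numbered 1 was the lowest of its subset in all 4 subsets: Ifit1, Oas3, Rsad2, Bst2, Samhd1, Usp18, Gbp3 and Ifi27l2a. The reverse, with number 1 the highest in all 4, held for 0 genes (3.48% of all genes). The labels do not say what the number marks, the pattern was noticed after the values were seen, and its source was not tested.

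**Figure D5:**
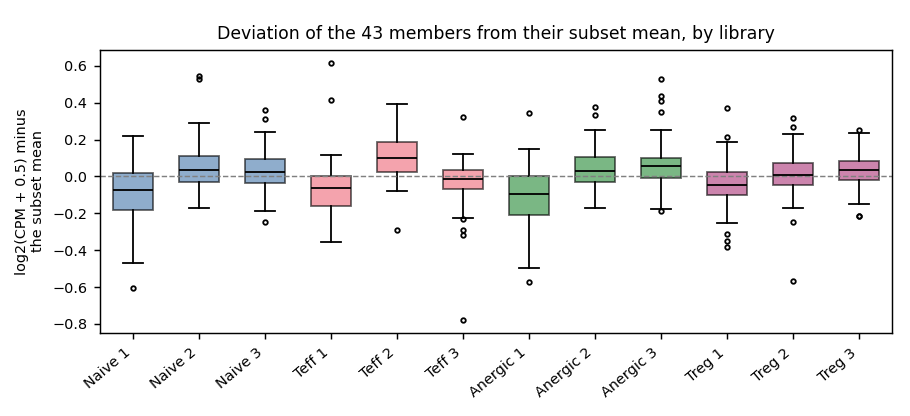
Deviation of each of the 43 genes from its subset mean in each library, as log2(CPM + 0.5); boxes span the quartiles with the median as a line, whiskers reach 1.5 times the box, circles are genes beyond and the dashed line is 0. The medians of Naive 1, Teff 1, Anergic 1 and Treg 1 lie below the line, and Teff 3 is the only other library with a median below it.

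Of the 138 calls that the 43 genes gave in the 6 comparisons, 97 were kept under every alternative tried, which were 9 changes of test, scaling, filter, block or fit and the leaving out of each of the 12 libraries. The calls of Oas2, Gbp3 and Igtp, and those of Samhd1 apart from Anergic against Teff, were among those kept.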

How the data were processed

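Per the series design text and the labels' protocols, total RNA libraries (SMARTer Stranded Total RNA-seq Pico v2) were sequenced as read pairs and processed by the authors with Trimmomatic, HISAT2, SAMtools, featureCounts and edgeR. The build was GRCm38, per the submitters' processing notes. The gene annotation, and whether reads were counted by strand, is not stated in the labels or notes. The authors deposited raw read counts per gene, with 6909035 to 9527897 counts per library.

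From these counts, edgeR 4.0.16 (R 4.3.3) gave TMM-scaled CPM and, after filterByExpr, quasi-likelihood F tests over all 12 libraries with no covariate, two-sided, with Benjamini-Hochberg adjustment over 13393 genes. The SE is the log2 fold change divided by the square root of F. The procedure was tested on simulated counts. Libraries were grouped by the labelled subset. DESeq2 1.42.0, limma 3.58.1 and other scalings, filters and fits were alternatives. Shared 50-base stretches and exon overlaps come from a GENCODE vM21 annotation of GRCm38.

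All 43 genes are described. Values in every library are given for those with at least 5 CPM in their highest subset and a fold of at least 2 between subset means, and for 8 others: Stat2, Irf9, Irf7, Irf1, Isg15, Tap1, Psmb8 and Psmb9. By rule, up to 4 called genes each way per comparison get a fold, SE and adjusted p. Such values of further genes among the 43 were added after they were seen. Of the other interferon-stimulated genes up to 3 each way per subset were eligible for naming. The genes and lists were chosen with earlier results of these data known. Some results are not reported here.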

Additional observations from a re-analysis of the deposited data

How the results depend on the processing

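No call was replaced by a call in the other direction under any of the 21 alternatives. Estimates near 0 can change sign, as total-count scaling put the median of all genes at -0.10 in Anergic against Teff cells. Of the 138 calls of the 43 genes, 41 were lost under at least 1 alternative, 40 of them when 1 library was left out and 19 under another setting, and the median adjusted p of the 41 was 0.0241. Under total counts alone, the genes higher in Anergic than Teff cells numbered 1 (1218 of all 13393 genes) and those higher in Anergic than Treg cells 3 (1324). Those lower in Teff than Naive cells numbered 3 (1485). Leaving out 1 library at a time gave 2 to 3 higher and 14 to 19 lower in Anergic than Teff cells, 3 to 6 and 14 to 20 in Anergic against Treg, 8 to 15 and 11 to 15 in Anergic against Naive, 12 to 16 and 3 to 5 in Teff against Naive, 12 to 18 and 8 to 9 in Treg against Naive, and 7 to 10 and 10 to 14 in Treg against Teff cells. The cause of these changes was not tested, beyond the smaller number of libraries. The share of all genes called without each library is not given.

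The labels number the libraries 1 to 3 in every subset without saying what the number marks. Deviations from the subset means correlated by -0.05 to 0.18 between same-numbered libraries (median 0.07, over 0.1 in 4 of 18 pairs). Between other libraries the range was -0.20 to 0.17 (median -0.04, over 0.1 in 1 of 36 pairs). Same-numbered libraries were thus slightly more alike, and what they share was not tested. The main fit did not treat the libraries as paired, and the number as a block was an alternative. With the replicate number as a block, 19 more tests passed and 0 were lost, and the counts were 3 higher and 21 lower in Anergic than Teff cells, 7 and 20 in Anergic against Treg, 14 and 15 in Anergic against Naive, 17 and 6 in Teff against Naive, 20 and 9 in Treg against Naive, and 11 and 14 in Treg against Teff cells. Calls over all 13393 genes rose with the block too. In the same order they were 2042 and 1945, 2314 and 2296, 3508 and 3040, 2757 and 2320, 2709 and 2087, and 2248 and 2095. Without the block they were 1864 and 1702, 2096 and 2054, 3342 and 2851, 2570 and 2100, 2538 and 1858, and 2006 and 1888. Across the alternatives, calls were lost among low and abundant genes alike, such as Ifi44 and Tap1, and how depth limits them was not tested.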
